A study of Mus musculus with 2 samples.

Results

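AP-1 and immediate early genes are described here in 2 libraries of iHFSC2, a mouse line of immortalized stem cells of the hair follicle. The 10 genes were taken from the deposited table by symbol, out of 22383 genes: the Fos subunits Fos, Fosl1 and Fosl2, the Jun subunits Jun, Junb and Jund, and the immediate early genes Atf3, Egr1, Ier2 and Ier3. The hairpin library came from cells infected with the shcircSmad5 lentivirus, whose short hairpin targets a circular RNA of the Smad5 gene. The vector library came from cells infected with the empty vector. Both lines were under puromycin from day 4 after infection and were stable lines by day 15. Each group had 1 library, 1 hairpin was used, and no library with a control hairpin was analysed here, so the hairpin, the separate selection of each line and the single library of each group cannot be told apart. No test between groups was possible, and every interval below covers counting error alone.

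AP-1 is a transcription factor made of a Fos protein and a Jun protein, or of 2 Jun proteins, joined through a leucine zipper. Jun proteins can also pair with proteins of the ATF family. Growth factors, stress and wounding activate MAP kinases. These switch on some of the subunit genes shortly after the stimulus without new protein synthesis, hence the name immediate early genes. In keratinocytes AP-1 is known for its part in proliferation, wound repair, inflammation and the genes of terminal differentiation.

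A gene was called lower or higher where its libraries differed 2-fold or more, its exact 95% counting interval left out a ratio of 1, and 1 or both libraries held 20 counts or more. Ratios are shcircSmad5 over empty vector after TMM scaling, which sets the libraries to a common level for most genes. All 10 genes had the minimum count. By this size rule 4 of the 10 were lower (Ier3, Jund, Atf3 and Jun) and 0 were higher. In bulk RNA, fewer cells that express a gene and less RNA per cell cannot be told apart. Among all 13596 genes with the minimum count, 6.24% were lower and 8.43% were higher. Among the 2943 protein-coding genes whose FPKM in the vector library lay within the range of the 10 genes, a set chosen after their values were seen, 2.92% were lower and 0.408% were higher. FPKM is the count per kilobase of gene length and per 1000000 counts of its library. The median log2 ratio was -0.55 over the 10 genes, -0.02 over all genes and -0.13 over the protein-coding genes of that FPKM range. Of the 10 genes, 9 had a ratio below 0, against 65.8% of those protein-coding genes.

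**Figure D1:**
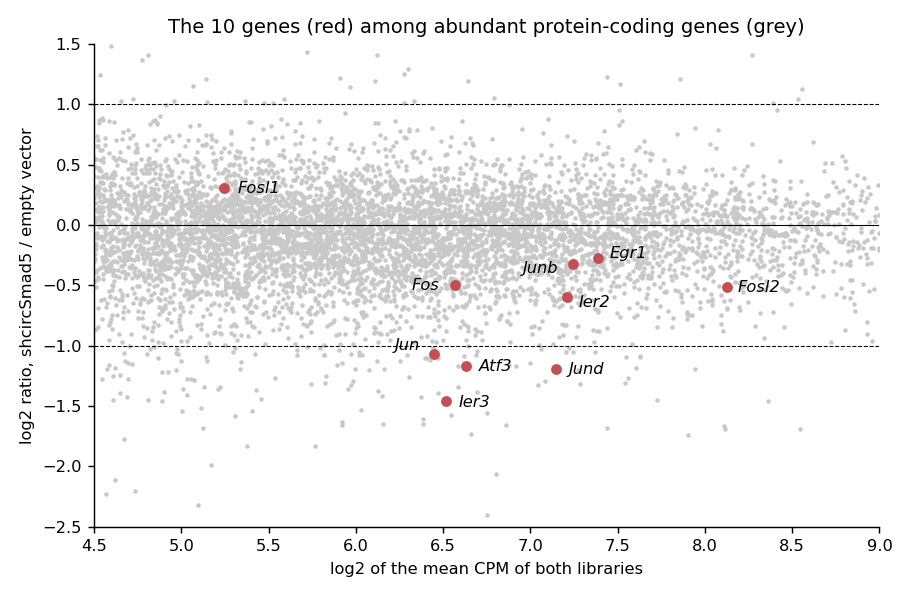
Log2 ratio (shcircSmad5 over empty vector) against the log2 of the mean CPM of both libraries, for 6592 measured protein-coding genes (grey) and the 10 genes (red); dashed lines mark 2-fold. Ier3, Jund, Atf3 and Jun lie below the lower dashed line, and Fosl1 alone among the 10 lies above 0.

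The upstream sequences of 5 of the 10 genes are shown because Jun, Atf3 and Ier3 were called lower while Fos and Junb were not. Each is the 120 bases before the transcription start given by RefSeq on GRCm38.p6, on the gene's own strand: Jun chr4:95052223-95052342 and Atf3 chr1:191183334-191183453 on the minus strand, Ier3 chr17:35821593-35821712 and Fos chr12:85473770-85473889 on the plus strand, and Junb chr8:84978749-84978868 on the minus strand. Capitals mark the motifs searched on both strands, which are listed after the sequences.
Jun: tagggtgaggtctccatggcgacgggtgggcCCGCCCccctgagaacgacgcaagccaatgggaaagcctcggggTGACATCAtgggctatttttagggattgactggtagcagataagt
Atf3: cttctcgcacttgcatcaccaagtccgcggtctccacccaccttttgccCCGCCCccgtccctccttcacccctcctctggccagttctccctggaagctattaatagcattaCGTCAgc
Ier3: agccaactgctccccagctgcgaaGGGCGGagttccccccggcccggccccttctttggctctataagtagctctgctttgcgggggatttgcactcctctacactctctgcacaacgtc
Fos: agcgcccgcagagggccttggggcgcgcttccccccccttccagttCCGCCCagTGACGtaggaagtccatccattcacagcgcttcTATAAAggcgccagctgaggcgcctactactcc
Junb: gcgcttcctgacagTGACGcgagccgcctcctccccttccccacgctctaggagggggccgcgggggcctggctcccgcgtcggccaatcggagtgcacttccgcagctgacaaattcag

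The motifs were searched in the window from 250 bases before to 50 bases after the start, which RefSeq's table held for 7 of the 10 genes, and in all 32851 windows of that table. The Jun-type AP-1 site TGACATCA was found in Jun alone of the 7, from 45 bases before the start, and in 3.62% of all windows. The classical AP-1 site TGANTCA was in none of the 7 and in 7.81% of all windows. The cAMP response element TGACGTCA (1.79% of windows) and the CArG box of serum response factor (1.63%) were also in none of the 7. Sites farther upstream than the window were not searched, and Fosl1, Egr1 and Ier2 had no window, so these genes may still hold such sites. The core TGACG of the cAMP response element, which also lies inside the full element and was added after the letters were seen, was in Fos, Junb and Atf3 and in 20.8% of all windows. The TATA box TATAAA lay 33 bases before the start in Fos and at the RefSeq start in Junb. It was in 13.6% of all windows. GGGCGG, the letters of an Sp1-type box, was in 5 of the 7 (Jun, Atf3, Ier3, Fos and Fosl2) and in 35.7% of all windows. Genes called lower and genes not called therefore both held the TGACG core and the Sp1-type letters. The RefSeq start is that of GENCODE M21 for Jun and Fos alone of the 7. For Fosl2 it lies 671 bases inside the gene as GENCODE draws it, and for Ier3 29 bases inside. For Junb it lies 30 bases before the gene, so TATAAA there falls upstream of the GENCODE start. For Jund it lies 1210 bases before the gene as GENCODE draws it, and that window held none of these motifs and is not shown. For Atf3 it lies 34706 bases inside the gene, so the motifs given for Atf3 belong to that inner start.

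The Jun subunits are taken first, since each AP-1 dimer needs a Jun protein or a relative of it. Jund (ENSMUSG00000071076, GRCm38 chromosome 8, 70698949 to 70700616, 1 exon), a Jun protein often linked to resting cells, had 7581 counts in the vector library and 3393 in the hairpin library. Its FPKM was 116 and 53.0. It was 2.28-fold lower (95% counting interval 2.19 to 2.38). Jund was thus close to the top of the 10 genes per length in the vector library, just under Ier3, and below Ier2 and Junb in the hairpin library. On the opposite strand the gene model Gm11175 covers 52.6% of the exonic bases of Jund, and it had 0 counts in both libraries. Whether the counting used strand is not given, so the effect of this overlap on the level of Jund is not known.

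Jun (ENSMUSG00000052684, chromosome 4, 95049034 to 95052222, 1 exon), the founding member of the family and a target of the JNK kinases, had 4548 and 2219 counts and an FPKM of 36.3 and 18.1. It was 2.09-fold lower (1.99 to 2.20), so the counting interval reaches across the 2-fold limit. After centring each chromosome on its median, its log2 ratio was -0.86 and the call was lost, as it was under 3 other settings at -0.96 to -0.999. Of the 10 genes Jun had the lowest FPKM in the hairpin library, where Fosl1 stood above it. Junos, a noncoding gene on the opposite strand that shares 232 bases with the exon of Jun, had 8 and 28 counts and was called higher. Junb (ENSMUSG00000052837, chromosome 8, 84974484 to 84978718), which in skin holds back cytokine genes, had 6464 and 5290 counts and an FPKM of 91.0 and 76.2. It was 1.25-fold lower (1.20 to 1.29) and was not called.

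Summed over the 3 Jun subunits, the FPKM was 243 in the vector library and 147 in the hairpin library. The makeup differed as well. Jund gave 47.6% of the sum in the vector library and 36.0% in the hairpin library, while Junb gave 37.4% and 51.7%. Jun gave 14.9% and 12.3%. Junb took the place of Jund as the most abundant Jun transcript per length. An effect of the opposite-strand overlap of Jund on these shares was not tested. These are shares of RNA and not of protein or of dimers.

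None of the Fos subunits was called. Fos (ENSMUSG00000021250, chromosome 12, 85473890 to 85477273), the subunit with the briefest induction, had 4266 counts in the vector library and 3088 in the hairpin library, with an FPKM of 46.2 and 34.2. It was 1.41-fold lower (1.35 to 1.48). Fosl2 (ENSMUSG00000029135, chromosome 5, 32135801 to 32157842) encodes Fra-2, a subunit found in epidermis. It had the most counts of the 10 genes, 12608 and 9040, on an exonic length of 9680 bases, and an FPKM of 33.2 and 24.3. It was 1.42-fold lower (1.39 to 1.46), a ratio that overlaps that of Fos within the counting intervals.

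Fosl1 (ENSMUSG00000024912, chromosome 19, 5447547 to 5455946), which encodes Fra-1, a subunit linked to cell migration and sustained ERK signalling, had 1305 and 1648 counts and an FPKM of 16.3 and 21.1. It was 1.24-fold higher (1.15 to 1.33), and of the 10 genes it alone had a ratio above 0. That sign was kept under every one of the 10 alternatives in which it was recomputed, between 0.11 and 0.38 on the log2 scale. Exons of Ccdc85b on the opposite strand cover 57.2% of the exonic bases of Fosl1. Ccdc85b had 247 and 344 counts, a log2 ratio of 0.45, and whether the counting used strand is not given in the sources used here.

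**Figure D2:**
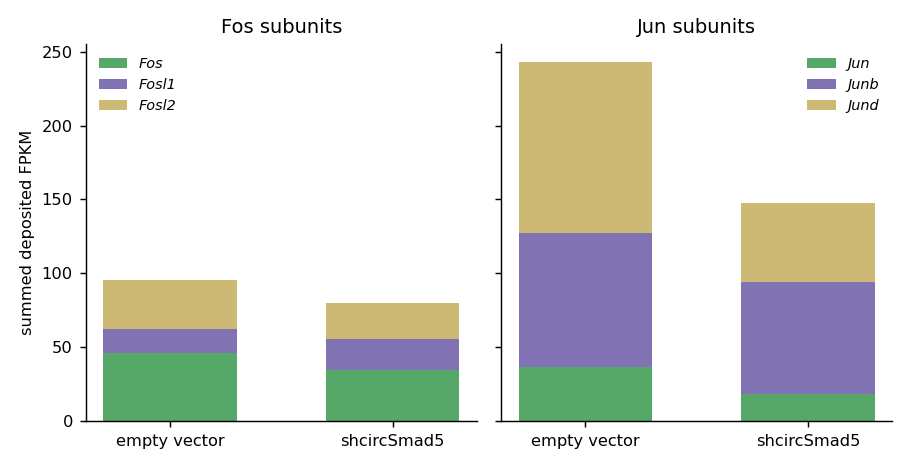
Deposited FPKM of the Fos subunits (left) and Jun subunits (right), stacked by gene, with 1 library per bar and no error bar. The Jun sum was 243 in the vector library and 147 in the hairpin library, and the Fos sum 95.7 and 79.7.

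The FPKM summed over Fos, Fosl1 and Fosl2 was 95.7 and 79.7, so the Fos sum differed less than the Jun sum. On the TMM scale the log2 ratio of the sum was -0.33 for Fos subunits and -0.79 for Jun subunits. The Jun sum was 2.54 times the Fos sum in the vector library and 1.85 times in the hairpin library. Fosl1 made up 17.1% of the Fos sum in the vector library and 26.5% in the hairpin library. Fos made up 48.3% and 42.9%. Fosb, the remaining gene of the Fos family, is not among the 10, so the Fos sums and shares leave it out. It had 5127 and 3150 counts, an FPKM of 20.9 and 13.1 and a log2 ratio of -0.73. Fosb was looked up after its value was seen.

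Atf3 (ENSMUSG00000026628, chromosome 1, 191170296 to 191218039), a stress-induced ATF protein that pairs with Jun proteins and acts mostly as a repressor when it pairs with itself, had 5268 and 2396 counts. Its FPKM was 62.3 and 29.0. It was 2.24-fold lower (2.14 to 2.36). The ratios of Jund, Atf3 and Jun lay close together, and the counting intervals of Atf3 overlapped those of both Jund and Jun.

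Egr1 (ENSMUSG00000038418, chromosome 18, 34859823 to 34864984), a zinc finger factor driven by ERK and serum response factor, had 7052 counts in the vector library and 5956 in the hairpin library. Its FPKM was 40.1 and 34.6, and it was 1.21-fold lower (1.17 to 1.25). Its interval overlapped that of Junb. After centring on its chromosome Egr1 had a log2 ratio of -0.35, and after centring on the genes within 1 Mb, an alternative chosen after seeing the data, -0.53.

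Ier3 and Ier2 are small immediate early response genes that are no AP-1 subunits. Ier3 (ENSMUSG00000003541, chromosome 17, 35821684 to 35822923), a regulator of survival that is switched on by stress and NF-kB, had 5160 and 1913 counts. Its FPKM was 116 and 44.1. It was 2.75-fold lower (2.61 to 2.90), the lowest ratio of the 10, and its rank in FPKM among them was 1 in the vector library and 4 in the hairpin library. Ier2 (ENSMUSG00000053560, chromosome 8, 84661331 to 84662852, 1 exon), a nuclear protein, had 6848 and 4638 counts and an FPKM of 114 and 79.3. It was 1.51-fold lower (1.45 to 1.57), was not called, and had the highest FPKM of the 10 in the hairpin library.

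**Figure D3:**
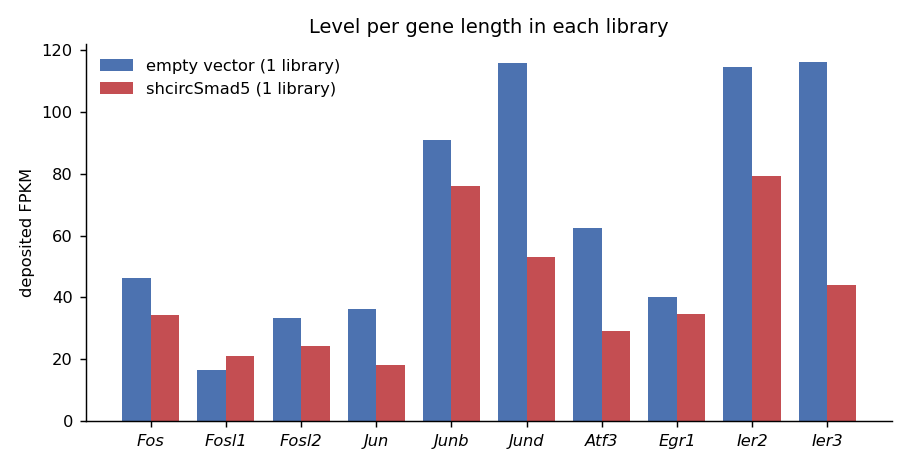
Deposited FPKM of each of the 10 genes in the vector library (blue) and the hairpin library (red), 1 library per bar and no error bar. Fosl1 is the one gene with the taller red bar, at 16.3 and 21.1, and Ier3 shows the lowest ratio, at 116 and 44.1.

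In order from the lowest ratio, the genes were Ier3, Jund, Atf3, Jun, Ier2, Fosl2, Fos, Junb, Egr1 and Fosl1. The counting intervals of neighbours in this order were apart between Ier3 and Jund, between Jun and Ier2, between Fos and Junb, and between Egr1 and Fosl1. They overlapped between Jund and Atf3, Atf3 and Jun, Fosl2 and Fos, and Junb and Egr1. The interval of Ier2 (log2 -0.65 to -0.54) overlapped narrowly with that of Fosl2 (-0.55 to -0.47). The spread between cultures was not measured, so this order belongs to these libraries.

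Several of the 10 genes lie where their surroundings also differed between the libraries. Chromosome 17, with Ier3, had a median log2 ratio of -0.38 over 643 measured genes, and the 55 measured genes that start within 1 Mb of Ier3 had a median of -0.47. Flot1, which starts 0.307 kb from Ier3, had 611 and 268 counts and was itself 2.33-fold lower. Near Jund, 71 genes had a median of -0.26, and 6 of them were lower and 1 higher, with 6.24% and 8.43% of all genes beside it. The 22 genes near Atf3 had a median of -0.18. The 8 genes near Jun had a median of 0.21, above 0, while chromosome 4 as a whole had -0.20. With each gene centred in the same way at the median of its own surroundings within 1 Mb, the log2 ratio was -1.27 for Jun, -0.99 for Ier3, -0.98 for Atf3 and -0.93 for Jund. Only Jun then passed the 2-fold limit, and the other 3 lay just under it. In the same setting Junb was at -0.04 and Fosl1 at 0.11. The part of the surroundings in these ratios was not tested.

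**Figure D4:**
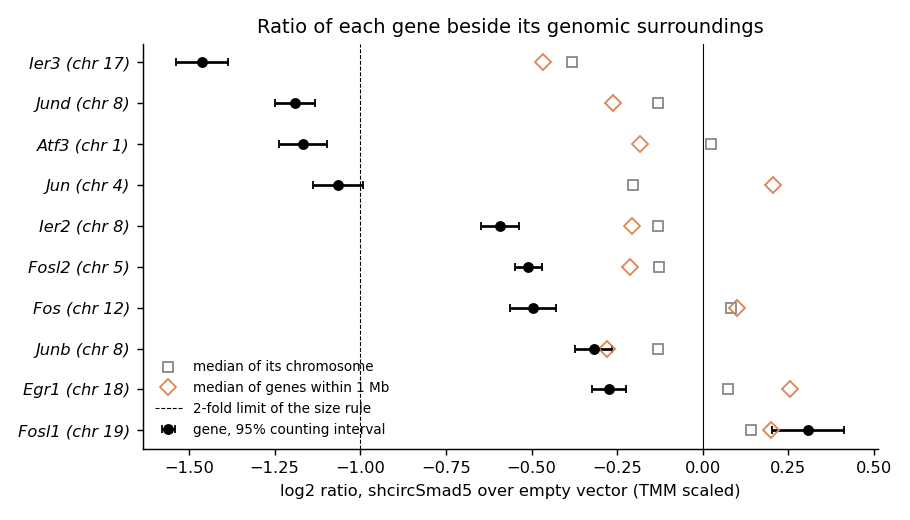
Log2 ratio of each gene (black, with the 95% counting interval), the median of the measured genes of its chromosome (grey squares) and of those within 1 Mb (orange diamonds); the dashed line marks 2-fold. Ier3 and Jund lie below surroundings that are themselves below 0, while Jun lies low beside a local median of 0.21.

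Gene structure and message sequence, which the choice of the 10 genes did not use, varied among them. Jun, Jund and Ier2 have 1 exon in every annotated transcript, as have 274 other measured protein-coding genes, of which 7.66% were lower and 5.11% higher. The letters TATTTAT, the core of AU-rich elements that mark unstable messages, occur in the longest coding transcript of 7 of the 10 genes and in 34.2% of 11588 measured protein-coding genes. Ier3 had 4 copies in 1131 bases, the most per length, Fosl2 had 3 and Fos 2. Egr1, Junb and Ier2, none of which was called, had 0. Fosl1, with a ratio above 0, had 1 copy, as had Jun, Jund and Atf3.

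The genes around AP-1 were read from 7 lists. Of 25 measured bZIP genes that can pair or compete with AP-1 subunits, 0 were lower and 1 was higher, with a median log2 ratio of -0.24. The share higher was 4.0%, against 8.43% of all genes and 4.61% of measured protein-coding genes. Of all genes 6.24% were lower, and of protein-coding genes 6.38%. The gene called higher was Maf, a large Maf factor, with 378 and 1008 counts (2.61-fold). Of 38 other immediate early genes, 3 were lower and 0 higher, with a median of -0.10. These were the matricellular gene Ccn2 (39986 and 10585 counts, 3.86-fold), the MAP kinase phosphatase gene Dusp1 (5376 and 1847, 2.97-fold) and the nuclear receptor gene Nr4a3 (29 and 13). The share lower was 7.89%, near the 6.24% of all genes and the 6.38% of protein-coding genes. Ccn2 is also a target of TGF-beta and YAP, and Dusp1 lies on chromosome 17.

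Upstream, 2 of 34 measured MAP kinase cascade genes were lower and 0 higher, with a median of -0.14. The share lower was 5.88%, no more than the 6.24% of all genes. Map3k1, a kinase above JNK, had 3436 and 1365 counts and was 2.57-fold lower. Mapk8ip1, a scaffold for JNK, had 901 and 242 counts and was 3.80-fold lower. The JNK genes Mapk8 and Mapk9 themselves, looked up after these values were seen, had log2 ratios of 0.15 and 0.16. Of 24 factors and cofactors of immediate early promoters, none was called in either direction (median -0.13); the most abundant, Ets2, Crebbp and Ep300, had log2 ratios of 0.17, -0.06 and 0.11. None of 15 genes of Jun and Fos protein turnover was called (median -0.04), and the damage-binding protein gene Ddb1 had a log2 ratio of 0.10 and the kinase gene Csnk2a1 one of -0.31. None of 27 genes of AU-rich element binding and mRNA decay was called (median -0.04), with Cnot1 at -0.04, Cnot6 at 0.23 and Zfp36l2 at -0.42. Beside these lists without a call, 6.24% of all genes were lower and 8.43% higher. Among measured protein-coding genes the shares were 6.38% and 4.61%.

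Among 27 measured genes known as AP-1 targets in keratinocytes, 10 were lower and 0 higher, which is 37.0% against 6.24% of all genes, with a median of -0.60. Several of these genes were known to be low here when the list was drawn up, so the count is no independent evidence of direction. The cyclooxygenase gene Ptgs2 had 16280 and 5148 counts and was 3.23-fold lower. The angiogenic factor gene Vegfa, on chromosome 17, had 3534 and 1142 counts (3.16-fold). The activin antagonist gene Fst had 8555 and 3505 (2.49-fold), and the cytokine gene Il1a 1035 and 385 (2.74-fold). Fst is also on the list of bulge stem cell markers below. The matrix metalloproteinase genes Mmp10, Mmp13 and Mmp1b, chosen after their values were seen, were lower too, on 12 to 84 counts. Other targets had ratios above 0: the wound keratin gene Krt6a and the cyclin gene Ccnd1 had log2 ratios of 0.41 and 0.33, and Ereg, a ligand of the EGF receptor, 0.82. The targets and the 10 genes were measured in the same libraries, and whether one followed from the other was not tested.

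**Figure D5:**
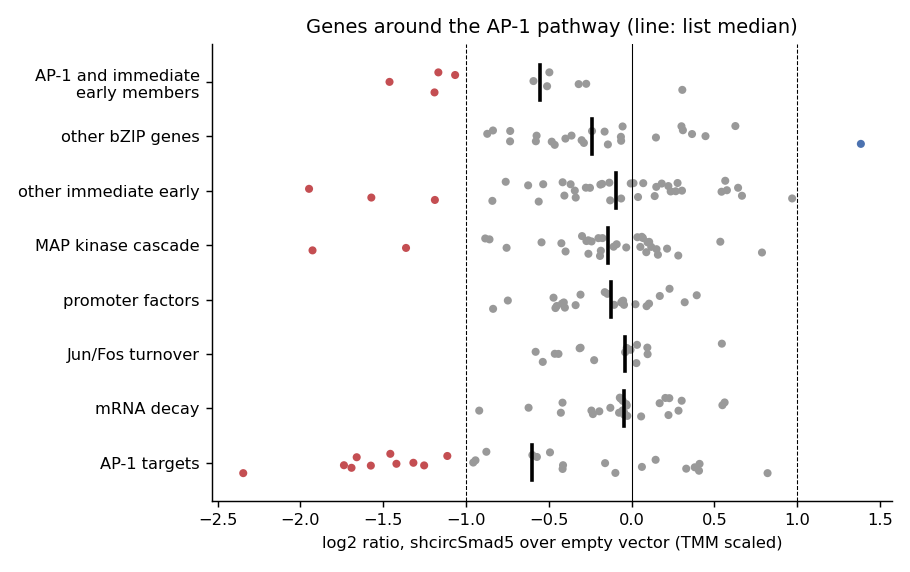
Log2 ratio of every measured gene of the 10 and of 7 related lists, with red points called lower, blue called higher and black lines for list medians. The medians of the 10 genes and of the AP-1 targets lie at -0.55 and -0.60, and those of the other lists between -0.24 and -0.04.

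The library totals were 39261010 and 38382081 gene counts. Basal keratinocyte markers were abundant, with a summed level of 16000.1 CPM in the vector library and 17806 in the hairpin library. Of these 8 markers 0 were called, where 6.24% of all genes were lower and 8.43% higher. Of 8 measured bulge stem cell markers 4 were lower, among them Fst, which is also counted as an AP-1 target. The bulge list summed to 715 and 396 CPM and had a median log2 ratio of -1.04. Its lowest log2 ratio, -7.22, was also the lowest of all 13596 measured genes. Cd34 had 0 counts in both libraries. Of 5 measured differentiation markers 2 were lower (127 and 91.6 CPM), and Krt1 was at 0 in both. Fibroblast markers summed to 5.21 and 1.94 CPM, endothelial to 3.10 and 0.79, immune to 6.69 and 5.76 and melanocyte markers to 22.2 and 11.7. Col1a1, Cdh5 and Itgam had 0 counts in both libraries. At these low levels the 2 measured fibroblast and 2 measured endothelial markers were called lower, and no immune or melanocyte marker was called. Mitochondrial transcripts summed to 12081 and 10378 CPM. The part of the bulge and differentiation markers in the ratios of the 10 genes was not tested.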

How the data were processed

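The values are gene-level RNA sequencing results of 2 libraries, 1 per group, each read from a column named for its sample (0 value columns were left out). Per the labels' protocols, ribosomal RNA was removed and the library kit keeps strand. HISAT2, HTSeq 0.13.5, GRCm38 and GRCh38 are named in the submitters' processing notes, without the role of each build; the annotation, the strand setting and the treatment of multiple matches were not given in the sources used here. Deposited counts are raw whole numbers per gene. The deposited FPKM values were scaled by the authors to gene length and library total, per the file headers.

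Counts were scaled by TMM (edgeR 4.0.16, R 4.3.3) on the whole table, and CPM here is the count per 1000000 of the scaled total. The 95% interval of a ratio came from exact binomial (Clopper-Pearson) limits (SciPy 1.17.1). These are limits of the share of a gene's counts found in the hairpin library. The size rule was run on simulated counts with counting error alone, so that run cannot show how it fares with spread between cultures. Reads carry no molecular identifiers, so intervals cover counting error alone. A count of 0 was set to 3 counts for a ratio. Coordinates are from GENCODE M21 (GRCm38), where 22319 of the 22383 gene IDs were found; promoters are from RefSeq (GRCm38.p6).

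The 10 genes, the lists and the rules were chosen with earlier results of these data known. All 10 are named, with up to 4 called genes of each other list by count, or 3 where none was called, and called neighbours within 100 kb. Of the genes this rule names, 1 is not reported here. The alternatives were other scalings (total counts, DESeq2 1.42.0, upper quartile, trimmed totals), FPKM with pseudocounts, a prior count, count minimums, fold limits and centring.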

Additional observations from a re-analysis of the deposited data

How the results depend on the processing

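Of 248 recomputed counts and medians, 214 stayed the same by a set rule. A count did so if it moved by no more than 1.5 times, and counts of 0 that stayed 0 are among the 214. The median did so if it moved by less than the median distance from middle to end of the 10 genes' counting intervals. None of the 10 genes changed sign under any alternative. Genes called lower among the 10 numbered 4 with total counts, DESeq2, the upper quartile, a prior count, other count minimums and centring on protein-coding genes. They numbered 3 where Jun was lost (at -0.99 with totals without mitochondrial and the 20 most abundant genes, -0.999 as log2(FPKM + 0.1), -0.96 as log2(FPKM + 1) and -0.86 with chromosomes centred). They numbered 5 with a fold limit of 1.5 (Ier2 added), 0 with a fold limit of 3, and 1 with each gene centred at its surroundings. The median of the 10 genes was -0.49 with the upper quartile and as log2(FPKM + 0.1), -0.47 with trimmed totals and -0.48 as log2(FPKM + 1). All genes called lower and higher numbered 215 and 196 as log2(FPKM + 1), 463 and 439 with a minimum of 100 counts, 1753 and 1892 with a fold limit of 1.5, and 422 and 591 with 3. Among other immediate early genes 1 was higher with total counts, the upper quartile, trimmed totals and both centrings. At a fold limit of 1.5, that list had 6 lower and 3 higher, other bZIP genes 4 lower, MAP kinase genes 5 lower and 1 higher, promoter factors 2 lower, decay genes 2 lower and AP-1 targets 1 higher. At a fold limit of 3, AP-1 targets had 4 lower, other immediate early and MAP kinase genes 1 lower each, and other bZIP genes 0 higher. As log2(FPKM + 1), AP-1 targets had 6 lower and other bZIP genes 0 higher, and with no count minimum 1 AP-1 target was higher. No paired analysis was possible because each group had 1 library. In the vector library the 10 genes had 1305 to 12608 counts, and the counting interval of Jun alone among the 4 called genes crossed 2-fold. The spread between cultures was not measured.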
